A study of Mus musculus with 12 samples.

Results

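To describe the response of wild-type (WT) macrophages to lipopolysaccharide (LPS), the outer membrane glycolipid of Gram-negative bacteria, 3 libraries of WT peritoneal macrophages kept with LPS at 1 µg/mL were compared with 3 libraries of WT peritoneal macrophages kept with phosphate-buffered saline (PBS), both for 6 h. These 6 libraries were taken by their genotype and treatment labels from the 12 of the series. The other 6, labelled as Ythdf1 knockouts and treated in the same 2 ways, entered the same statistical model but are described here only where the WT response differed from theirs. Per the study's methods, the mice were on the C57BL/6 background and 6 to 10 weeks old. The cells were drawn into the peritoneal cavity by an irritant, which the series record gives as starch broth and the study's methods as thioglycollate, and were kept in culture before treatment. They are therefore elicited and cultured macrophages, in both groups. The labels call the libraries independent biological replicates and do not say whether each held the cells of a single mouse or of a pool, so p-values measure the spread between these libraries. The files listed 16920 genes, of which 12064 passed the filter on low counts and were tested, and 1341 of the genes tested belonged to at least 1 of 64 gene lists.

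Macrophages are phagocytes that engulf particles, degrade them in lysosomes and alert other cells. They sense LPS through Toll-like receptor 4 with its partners CD14 and MD-2. From the cell surface the receptor signals through the adaptor MyD88 to the transcription factors NF-kB and AP-1, which drive cytokine genes, and from endosomes it signals through the adaptor TRIF to the factor IRF3, which drives the gene of interferon beta. Secreted interferon then acts back on the same cells through its receptor, JAK kinases and STAT factors, and turns on antiviral genes and genes of antigen presentation. The same signals also switch on inhibitors that limit the response, and they change metabolism, adhesion and survival.

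LPS changed most of the expressed genes. By edgeR's quasi-likelihood test with Benjamini-Hochberg adjustment, 9254 of the 12064 genes tested differed between LPS and PBS (76.7%), of which 4404 rose (36.5%) and 4850 fell (40.2%). By more than 1 log2 unit, that is by more than a doubling, 2074 rose (17.2%) and 2316 fell (19.2%). Counts of list members below are to be read beside these shares. The levels in the 3 LPS libraries did not overlap those in the 3 PBS libraries for 9434 genes (78.2%). The rises reached much farther than the falls. Beyond 3 log2 units 661 genes rose and 299 fell, beyond 5 units 252 rose and 38 fell, and beyond 8 units 62 rose and none of those tested fell.

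The rises also filled a large part of the message pool. The 2074 genes that rose by more than 1 log2 unit held 11.7 ± 0.0844% of all counts with PBS and 43.99 ± 0.148% with LPS (SD, n = 3 in each group, as for all values below). The 2316 genes that fell by more than 1 unit went from 10.3 ± 0.0934% to 1.96 ± 0.137%. The 252 genes that rose by more than 5 units held 0.139% of the counts with PBS and 11.6 ± 0.605% with LPS. Counts give shares of a library and no amount of RNA per cell, so the reference level matters here. The trimmed mean of M values (TMM) scaling of edgeR, used for all fold changes below, placed the median of all genes tested at -0.05 on the log2 scale. Relative to TMM, scaling by library totals alone moved this median by -0.66, upper-quartile scaling by -0.31 and relative log expression (RLE) scaling by 0.05. With totals alone 2223 genes rose and 8247 fell. A gene higher by less than 0.66 under TMM therefore has the opposite sign by totals alone, and where a list median changes sign with a scaling, the changed value is given after it.

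**Figure D1:**
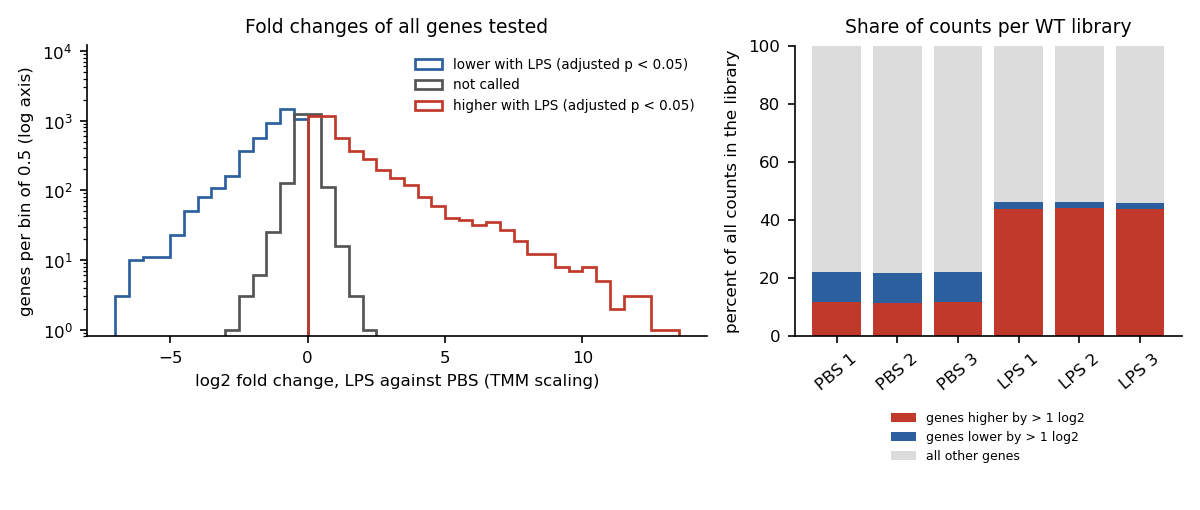
Left, numbers of genes (log axis) by log2 fold change of LPS against PBS in WT macrophages under TMM scaling, in bins of 0.5, with separate outlines for the 4404 genes called higher, the 4850 called lower and those not called. Right, percent of the counts of each WT library held by the 2074 genes higher by more than 1 log2 unit, the 2316 lower by more than 1 unit and all other genes, and the first class holds 11.7% on average with PBS and 44.0% with LPS. With scaling by library totals alone 2223 genes are called higher and 8247 lower.

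In terms of unscaled CPM, in which each count is taken relative to its library's total, the 50 genes with the largest gains went together from 3.37% of counts with PBS to 16.9% with LPS on average. Actb, which encodes cytoplasmic beta-actin and is often used as a reference gene, went from 6308 to 21285 unscaled CPM. The antiviral gene Rsad2, which encodes viperin, went from 33.8 to 11967 unscaled CPM, and its neighbour on chromosome 12, Cmpk2, a mitochondrial nucleotide kinase, went from 15.7 to 6145. Acod1, the enzyme that makes itaconate, went from 9.49 to 6728. The chemokine genes Cxcl10 and Ccl3 went from 1.91 to 4987 and from 71.7 to 4985 unscaled CPM, Nos2 from 0.9701 to 4673, and Il1rn, which encodes the antagonist of the interleukin-1 receptor, from 134 to 4666. Among the genes with the largest losses in share, Ctsd, a lysosomal protease, went from 28703 to 15321 unscaled CPM, Ftl1, the light chain of ferritin, went from 20983 to 11637, and Lipa, which hydrolyses cholesteryl esters in lysosomes, went from 2682 to 827. Under TMM scaling the fall was 0.24 log2 units for Ctsd, 0.19 for Ftl1 and 1.03 for Lipa, and that of Ftl1 did not pass the test without PBS replicate 1 (-0.16) or with RLE scaling (-0.14).

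Total counts of the 6 libraries lay between 21740508 and 22017005, and 3 counts, taken as the floor of detection, equalled 0.107 to 0.108 CPM (counts relative to the TMM-scaled library total) with PBS and 0.169 to 0.173 CPM with LPS. The reads carried no molecular identifiers, so floors cover counting error only. WT LPS replicate 1 stood apart from the other LPS libraries. The mean chi-square per gene was 31.6 and 24.6 between it and LPS replicates 2 and 3, 3.02 between those 2, and 2.75 to 4.46 between PBS libraries. Its difference from the mean of LPS replicates 2 and 3 ran with transcript length, from a median log2 ratio of -0.14 in the shortest 20% of transcripts to 0.19 in the longest 20%. Without it, 3 genes named below as lower lost the call, Gata6 at a log2 fold change of -0.49, Hspe1 at -0.16 and Ccl6 at -0.10, and list medians moved by between -0.22 and 0.28. Ythdf1 itself, whose protein binds RNA that carries N6-methyladenosine, was at 43.6, 44.97 and 41.9 CPM with PBS and 212, 198 and 194 CPM with LPS in the WT libraries (log2 fold change 2.21, SE 0.06, adjusted p = 1.7e-15). In the libraries labelled as knockouts it was at 55.4 to 58.1 CPM with PBS and 192 to 205 CPM with LPS, so its message was not lost there. Counts per gene show neither the protein nor which part of the gene the reads cover, so the label was not tested. The study shows genotyping of its knockout mice.

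Markers of macrophages dominated in every WT library. The 8 macrophage markers summed to 21836 to 22725 unscaled CPM with PBS and 13754 to 15539 with LPS, while under TMM scaling 4 of the 8 were higher and 2 lower by the test. Those of fibroblasts summed to 95.5 to 111 with PBS and 95.7 to 104 with LPS, and under TMM scaling 4 of the 5 tested were higher, by 0.42 to 0.68 log2 units. Those of skeletal muscle summed to 22.4 to 30.1 and 24.2 to 27.9. Mesothelial markers summed to 9.64 to 10.8 with PBS and 6.56 to 7.41 with LPS. None of the 6 markers of either list passed the test under TMM scaling. Eosinophil markers, with Epx and Prg2 not matched, lay at 3.82 to 4.73 and 2.45 to 2.81, and neutrophil markers at 5.09 to 6.68 and 6.18 to 8.20 with Retnlg, Mpo and Elane at 0 in all 6 libraries. B cell markers were at 2.09 to 2.41 and 0.4996 to 0.683, mast cell markers at 0.818 to 1.14 and 0.820 to 1.15, NK cell markers at no more than 0.227 and erythroid markers at no more than 0.227. Under TMM scaling Il5ra of the eosinophil markers (1.48) and S100a8 of the neutrophil markers (0.95) were higher and none of either list was lower by the test. Il5ra went from 0.275 to 0.780 CPM, near the floor. The other eosinophil marker tested went from 2.80 to 2.17 CPM (-0.37) and did not pass. Cd79b of the B cell markers was lower (-2.70), and the 1 mast cell marker tested was higher at an adjusted p of 0.0453, which it lost without any of 5 single libraries, in the fit with a replicate block, without a filter and with upper-quartile scaling. T cell markers went from 2.91 to 3.77 with PBS to 8.13 to 11.4 with LPS through Lck, from 0.0716 to 10.3 CPM (7.05), while 1 of the other 2 tested was lower and Cd3d, Cd3e and Cd3g stayed at or under 3 counts in each library. Dendritic cell markers went from 1.09 to 1.86 with PBS to 8.45 to 10.02 with LPS, where all 3 markers tested were higher under TMM scaling, Ccr7 from 0.204 to 8.82 CPM (5.40), Xcr1 from 0.132 to 1.33 CPM and Zbtb46 from 0.622 to 1.29 CPM. In bulk samples such as these, fewer cells of a type and less RNA per cell cannot be told apart.

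Genes of inflammatory cytokines and of the interferon response were among the largest rises. Below, the value in parentheses after 2 group means is the log2 fold change. Nos2 (inducible nitric oxide synthase, gene 18126, chromosome 11 from 78920787 to 78960226 of GRCm38.p6) was at 0.4701, 0.716 and 1.11 CPM with PBS and 6689, 5340.0 and 5517 CPM with LPS (log2 fold change 12.89, SE 0.45, adjusted p = 1.1e-09). This enzyme makes nitric oxide from arginine, and its message was barely detected without LPS and among the most abundant with it. Il12b, the p40 subunit shared by interleukins 12 and 23 (gene 16160, chromosome 11 from 44400063 to 44414677), was at 0.145, 0.107 and 0.179 CPM with PBS and 764, 750.2 and 824 CPM with LPS (log2 fold change 12.35, SE 0.19, adjusted p = 6.1e-18). Cxcl10, a chemokine for T cells (gene 15945, chromosome 5 from 92346638 to 92348889), was at 1.23, 1.61 and 1.68 CPM with PBS and 5420.0, 6865 and 6389.7 CPM with LPS (log2 fold change 12.01, SE 0.33, adjusted p = 3.5e-11). Il6, a cytokine of the acute phase response (gene 16193, chromosome 5 from 30013114 to 30019975), was at 0.108, 0.0715 and 0.143 CPM with PBS and 339, 445 and 451 CPM with LPS (11.83). Il1b, the precursor of the fever cytokine interleukin-1 beta (gene 16176, chromosome 2 from 129364569 to 129371164), was at 0.579, 0.823 and 0.751 CPM with PBS and 2353, 2157 and 2389 CPM with LPS (11.63). Edn1, the vasoconstrictor endothelin-1 (gene 13614, chromosome 13 from 42301476 to 42307990), was at 0.181, 0.107 and 0.143 CPM with PBS and 529, 552 and 534 CPM with LPS (11.82). No PBS library of these 6 genes came near an LPS library, and the rule for naming genes required that the groups do not overlap.

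Some genes were silent at this depth without LPS. At or under 3 counts in all 3 PBS libraries were 120 genes that rose, 27 of them to a mean of 5 CPM or more, and their folds are lower bounds set against the mean floor of the group. Serpina3f, a serine protease inhibitor, was at least 1644-fold higher with LPS and Il12a, the p35 subunit of interleukin-12, at least 879-fold. The transcription factor gene Lhx2 was at least 737-fold higher, Shisa3 at least 607-fold, and the interferon-inducible GTPase genes Gbp4 and Tgtp1 at least 585-fold and 432-fold. Lad1 was at least 413-fold higher and Apol9a at least 132-fold. In the other direction 126 genes were at or under 3 counts in all 3 LPS libraries, and 1 of them had a mean of 5 CPM or more with PBS, Tcp11l2, which was at least 67.3-fold lower with LPS. Serpina3f, Tgtp1, Gbp4, Apol9a, Shisa3 and Tcp11l2 had decimal counts in at least 1 library, where reads were shared between similar genes, so their levels are less certain than those of Il12a or Lhx2.

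The promoters of 4 genes that rose are printed because they show the DNA elements through which the NF-kB and interferon signals are known to act. Each is the 250 bases before the start site from RefSeq (build GRCm38.p6), read 5′ to 3′ on the strand of the gene. Capitals mark matches, on either strand, to the core of the interferon-stimulated response element (ISRE, GAAANNGAAA) or to the consensus of the kB site, which NF-kB binds. Cxcl10 (chr5:92348890-92349139, minus strand) and Gbp5 (chr3:142496684-142496933, plus strand) hold both, Rsad2 (chr12:26456453-26456702, minus strand) holds an ISRE core, and Il6 (chr5:30012864-30013113, plus strand) a kB site. A match is a description and no measurement of binding.
Cxcl10: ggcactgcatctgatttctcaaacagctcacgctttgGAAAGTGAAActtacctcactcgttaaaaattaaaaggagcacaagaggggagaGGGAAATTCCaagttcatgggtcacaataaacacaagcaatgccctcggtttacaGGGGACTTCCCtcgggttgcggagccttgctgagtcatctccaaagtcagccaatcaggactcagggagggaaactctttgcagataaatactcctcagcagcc
Gbp5: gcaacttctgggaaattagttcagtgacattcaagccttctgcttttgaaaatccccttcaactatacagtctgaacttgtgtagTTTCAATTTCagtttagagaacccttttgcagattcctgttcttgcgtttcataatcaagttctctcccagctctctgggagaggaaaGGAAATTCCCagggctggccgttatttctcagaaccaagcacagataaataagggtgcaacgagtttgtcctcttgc
Rsad2: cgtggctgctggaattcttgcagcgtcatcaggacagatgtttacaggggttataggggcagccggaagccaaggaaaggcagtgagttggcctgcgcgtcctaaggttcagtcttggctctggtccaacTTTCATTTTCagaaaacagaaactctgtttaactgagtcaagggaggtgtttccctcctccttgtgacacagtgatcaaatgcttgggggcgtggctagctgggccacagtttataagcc
Il6: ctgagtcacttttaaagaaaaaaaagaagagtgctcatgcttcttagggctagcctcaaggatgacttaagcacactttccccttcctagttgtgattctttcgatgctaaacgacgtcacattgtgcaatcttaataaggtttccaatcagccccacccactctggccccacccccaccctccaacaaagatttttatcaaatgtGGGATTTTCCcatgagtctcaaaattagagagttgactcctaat
Counted from the start site, the ISRE core begins at -213 in Cxcl10, at -165 in Gbp5 and at -120 in Rsad2, and the kB sites begin at -159, -104 and -103 in Cxcl10, where the last 2 overlap, at -77 in Gbp5 and at -44 in Il6. The levels of Gbp5 were 1.302, 1.22 and 1.93 CPM with PBS and 1798, 2081 and 2043 CPM with LPS (log2 fold change 10.37, SE 0.22, adjusted p = 6e-14). Those of Rsad2 were 26.5, 28.7 and 24.7 CPM with PBS and 15007, 15355 and 14506 CPM with LPS (log2 fold change 9.13, SE 0.14, adjusted p = 6.1e-18). Gbp5 acts against bacteria inside cells and viperin against viruses.

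**Figure D2:**
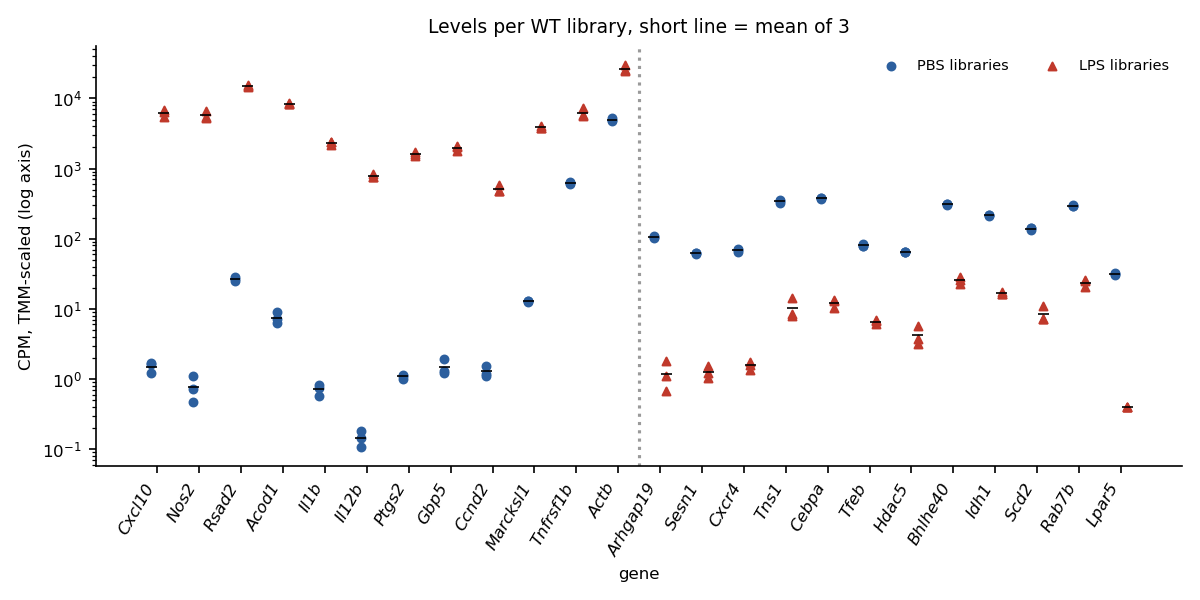
Levels (CPM with TMM scaling, log axis) of 24 genes in each of the 3 PBS libraries (circles) and 3 LPS libraries (triangles) of WT macrophages, with short lines at the group means; genes left of the dotted line rose and those right of it fell. PBS and LPS points do not overlap for any of the 24 genes, as the rule for naming genes required, and 78.2% of all genes tested did not overlap either. Nos2, Cxcl10 and Il1b differ by 12.89, 12.01 and 11.63 log2 units while Actb rises by 2.42 log2 units from an already high level.

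Genes of LPS sensing changed in both directions, and sensors of other microbial products mostly rose. Of 19 genes of the LPS receptor and its adaptors 12 rose and 6 fell, with a median log2 fold change of 0.43, or -0.23 by totals alone. Cd14, which hands LPS to the receptor, rose from 54.2 ± 2.33 to 459.9 ± 24.1 CPM (log2 fold change 3.09, SE 0.07), the adaptor gene Myd88 rose from 43.04 ± 1.76 to 462 ± 9.898 CPM (log2 fold change 3.42, SE 0.06) and Peli1, a ubiquitin ligase of the same pathway, rose from 17.2 ± 1.16 to 264 ± 4.398 CPM (log2 fold change 3.94, SE 0.07). Irak3, a pseudokinase that dampens the pathway, rose from 31.1 to 226 CPM (2.86). The receptor gene Tlr4, named after its values were seen, fell from 57.9 to 34.7 CPM (-0.74). Among 11 other Toll-like receptors and their partners 9 rose and 2 fell, with a median of 1.51. Tlr3, the receptor for double-stranded RNA, rose from 5.96 to 197 CPM (5.05), Tlr2, for bacterial lipopeptides, rose from 31.5 to 648 CPM (4.36) and Tlr9, for bacterial DNA, rose from 11.6 to 98.96 CPM (3.10). The 2 that fell were Tlr13, a receptor for bacterial ribosomal RNA, from 364 to 82.3 CPM (-2.14), and the flagellin receptor Tlr5, at least 6.22-fold lower with all 3 LPS libraries at or under the floor. Of 17 sensors of nucleic acids in the cytosol 16 rose (median 3.57). Ifih1, which encodes the RNA sensor MDA5, rose from 18.2 to 920.1 CPM (5.66), Zbp1, which binds left-handed nucleic acids, rose from 19.3 to 639 CPM (5.05) and Ifi205 rose from 1.57 to 1365 CPM (9.76). The 1 member that fell was Mavs, the mitochondrial adaptor of the RNA sensors, from 36.3 to 13.3 CPM (-1.45).

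Transcription factors moved in both directions. Of 21 NF-kB subunits and regulators 19 rose (median 3.26). The inhibitors rose with the subunits. Nfkbia, which holds NF-kB in the cytosol, rose from 28.3 ± 1.42 to 1159.5 ± 37.98 CPM (log2 fold change 5.36, SE 0.08), Nfkb2, the p100 precursor, rose from 36.9 ± 0.845 to 1222 ± 199.7 CPM (log2 fold change 5.05, SE 0.11), and Nfkbiz, a nuclear co-factor, rose from 3.44 ± 0.2303 to 549 ± 22.8 CPM (log2 fold change 7.31, SE 0.09). Tnip3, which restrains NF-kB, rose from 5.24 to 493 CPM (6.56), while the deubiquitinase gene Otulin was the 1 member that fell, from 32.4 to 22.3 CPM (-0.54). Among 25 factors of the AP-1 and EGR families and other immediate early genes 17 rose and 8 fell (median 1.14). Batf2 rose from 2.91 to 153 CPM (5.72), Batf from 7.59 to 137 CPM (4.17) and Cebpd from 9.49 to 151 CPM (3.996). Egr2 fell from 62.9 ± 1.92 to 5.41 ± 1.47 CPM (log2 fold change -3.54, SE 0.12). Of 19 IRF, STAT and JAK genes 16 rose (median 1.75). Irf7, a master factor of interferon genes, rose from 110.3 ± 10.1 to 2383 ± 188 CPM (log2 fold change 4.43, SE 0.22), Irf1 from 15.9 to 346 CPM (4.44), Stat2 from 33.3 to 544 CPM (4.03) and the kinase gene Jak2 from 24.1 to 496 CPM (4.36). The 2 that fell were Irf4, from 3.36 to 0.762 CPM (-2.14), and Stat6, the factor activated by interleukin-4, from 199 to 131 CPM (-0.60). Irf3, the first interferon regulatory factor of the pathway, was at 22.1, 26.4 and 23.2 CPM with PBS and 26.6, 23.5 and 27.5 CPM with LPS, and the difference did not pass the test (log2 fold change 0.11, adjusted p = 0.217).

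Inhibitors of the response rose with it. Of 24 genes for feedback inhibitors of signalling 19 rose (median 3.01). Socs3 and Socs1, which block JAK kinases, rose from 16.3 ± 2.65 to 1579.7 ± 51.9 CPM (log2 fold change 6.59, SE 0.13) and from 1.699 ± 0.127 to 174 ± 7.77 CPM (log2 fold change 6.67, SE 0.10). Cish, a member of the same family, rose from 0.276 to 24.9 CPM (6.47). The anti-inflammatory cytokine gene Il10 was at 0.145, 0.2504 and 0.107 CPM with PBS and 75.1, 97.99 and 91.9 CPM with LPS (8.996), and Il1rn, which blocks the interleukin-1 receptor, was at 104, 103 and 109.9 CPM with PBS and 5213, 6301 and 5965 CPM with LPS (5.79). Both encode proteins that restrain inflammation. The 4 members that fell were the phosphatase gene Dusp6, from 33.9 to 12.8 CPM (-1.41), Socs5, from 10.5 to 7.72 CPM (-0.44), and 2 of the genes of the tristetraprolin family of messenger RNA-destabilising proteins, Zfp36l1, from 73.7 to 21.9 CPM (-1.75), and Zfp36l2, from 296 to 53.5 CPM (-2.47).

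Secreted cytokines and chemokines had the highest list medians after the interferon-inducible GTPases. All 22 interleukins and haematopoietic cytokines tested rose (21 of them by totals alone), against 36.5% of all genes tested, with a median of 6.01, or 4.45 where members at the floor in every PBS library are set at their lower bounds. Beside Il12b, Il6, Il1b, Il12a and Il10, the cytokine genes named after their values were seen were Il1a, which rose from 24.3 to 2297 CPM (6.56), Il27, from 0.897 to 1002 CPM (10.12), and Ifnb1, which encodes interferon beta and went from 0 counts in all 3 PBS libraries to a mean of 0.702 CPM with LPS, at least 6.52-fold higher. Of 11 TNF superfamily ligands 7 rose and 2 fell (median 5.25). Tnf itself, named after its values were seen, rose from 13.6 ± 0.876 to 2585 ± 112 CPM (log2 fold change 7.57, SE 0.10), Tnfsf15 rose from 0.383 to 320.3 CPM (9.69) and Tnfsf10, which encodes the death ligand TRAIL, rose from 0.502 to 162 CPM (8.32). Lta and Tnfsf4 (OX40 ligand) rose from at or under 3 counts in each PBS library and were at least 85.2-fold and 89.3-fold higher. The 2 that fell were Tnfsf12, which encodes TWEAK, from 298 to 128 CPM (-1.22), and Tnfsf13, which encodes APRIL, from 58.95 to 39.9 CPM (-0.56).

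Of 23 chemokines 20 rose (median 5.34, or 5.03 with members at the floor at their bounds). Ccl5 was at 8.35, 8.76 and 7.86 CPM with PBS and 3722, 4066 and 4116 CPM with LPS (8.90), a chemokine for T cells and monocytes. Cxcl2, which draws neutrophils, was at 1.6995, 2.36 and 3.11 CPM with PBS and 784, 734 and 846 CPM with LPS (8.36). Ccl12, which draws monocytes, was at 0.398, 0.107 and 0.2502 CPM with PBS and 86.3, 142 and 145 CPM with LPS (8.92). The 2 chemokine genes that fell did so by small amounts, Ccl6 from 668 to 585 CPM (-0.19) and Cxcl14 from 5.92 to 4.46 CPM (-0.41). Ccl6 lost the call without any of 5 single libraries, at -0.10 to -0.21, with RLE scaling (-0.15), in DESeq2 (-0.15) or in the fit to the 6 WT libraries alone (-0.19), and Cxcl14 without PBS replicate 1 (-0.34), LPS replicate 2 (-0.31) or LPS replicate 3 (-0.38). Growth factors and matrix signals were split, with 10 of 21 rising and 9 falling (median 0.37, or -0.30 by totals alone). Inhba, the activin A subunit, rose from 0.359 to 40.3 CPM (6.79) and Hbegf from 4.89 to 32.1 CPM (2.71), while Vegfa, the main growth factor for blood vessels, fell from 24.2 ± 0.362 to 2.49 ± 0.488 CPM (log2 fold change -3.28, SE 0.11) and the matrix protein gene Tgfbi fell from 70.2 to 17.9 CPM (-1.98). Of 25 proteases and their inhibitors 17 rose and 7 fell (median 1.07). Serpina3g rose from 0.741 to 845 CPM (10.14), the membrane-bound metalloproteinase gene Mmp25 from 0.299 to 63.8 CPM (7.71) and Adamts4, an aggrecanase, from 0.1197 to 13.2 CPM (6.72). Among 17 complement genes 12 rose (median 0.48, or -0.18 by totals alone). Cfb, the factor B of the alternative pathway, rose from 27.4 ± 0.678 to 1122 ± 115 CPM (log2 fold change 5.35, SE 0.15), C3 rose from 61.4 to 477 CPM (2.96) and C1ra from 6.81 to 46.8 CPM (2.78). The 3 complement genes that fell included the receptor genes C5ar2, from 6.35 to 0.875 CPM (-2.85), and C5ar1, from 182 to 154 CPM (-0.24).

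Interferon-stimulated genes rose without exception among those listed and tested, under each scaling. All 30 antiviral interferon-stimulated genes rose by more than 1 log2 unit (median 4.28), and so did all 15 interferon-inducible GTPases (median 7.69), against 17.2% of all genes tested. Ifit1 and Ifit2, which bind viral RNA, rose together. Ifit1 was at 7.81, 8.73 and 7.08 CPM with PBS and 2443, 2943 and 2744 CPM with LPS (8.43). Ifit2 was at 10.5, 11.1 and 9.4002 CPM with PBS and 3593, 4282 and 3947 CPM with LPS (8.57). Cmpk2 was at 12.3, 12.8 and 12.1 CPM with PBS and 7999.6, 7587 and 7460.5 CPM with LPS (9.27). The GTPases act on the vacuoles of intracellular microbes. Iigp1 was at 0.181, 0.179 and 0.107 CPM with PBS and 125, 178 and 149 CPM with LPS (9.87), and the smallest rise in that list was 4.06 log2 units. Of 23 receptors for interferons and other cytokines 16 rose and 7 fell (median 1.15). Il15ra rose from 1.91 to 179.8 CPM (6.55), Il18bp, the secreted inhibitor of interleukin-18, from 10.2 to 127 CPM (3.64), Il13ra1 from 20.6 to 193 CPM (3.23) and Tnfrsf1b, the second TNF receptor, from 619 ± 13.1 to 6259 ± 966 CPM (log2 fold change 3.34, SE 0.09).

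Antigen presentation rose in its class I arm more than in its class II arm. All 20 genes of MHC class I and peptide loading rose under each scaling (median 2.81). Nlrc5, the transactivator of class I genes, rose from 19.2 to 518 CPM (4.76), the peptide transporter gene Tap1 rose from 46.5 ± 3.56 to 1167 ± 86.4 CPM (log2 fold change 4.65, SE 0.08), and H2-Q6 and H2-Q7 rose from 0.803 to 17.5 CPM (4.44) and from 1.19 to 23.3 CPM (4.28). Of 9 class II genes 6 rose and 2 fell (median 0.26, or -0.05 with upper-quartile scaling and -0.40 by totals alone), and none of those that rose did so by more than 1 log2 unit. The invariant chain gene Cd74 rose from 447 to 849 CPM (0.93) and H2-Ab1 rose from 99.2 to 183 CPM (0.88). The 2 that fell were Ciita, the transactivator of class II genes, from 4.28 to 1.37 CPM (-1.64), and H2-DMa, from 23.3 to 20.4 CPM (-0.19), which lost the call without PBS replicate 1 or 3 or LPS replicate 3 (-0.18 in each case), with RLE scaling (-0.15) or in DESeq2 (-0.15). The median difference between the 2 arms was not tested. Of 19 co-stimulatory and checkpoint molecules 14 rose and 4 fell (median 2.96). Cd40 was at 8.53, 7.48 and 6.54 CPM with PBS and 1357, 1537 and 1539.9 CPM with LPS (7.62). Cd86 rose from 6.97 to 148 CPM (4.41), Cd274, which encodes the inhibitory ligand PD-L1, rose from 99.8 ± 4.63 to 2232 ± 126 CPM (log2 fold change 4.48, SE 0.07), and Slamf1 was at least 197-fold higher. The 4 that fell were Havcr2 (TIM-3), from 33.6 to 3.56 CPM (-3.24), Vsir (VISTA), from 449 to 64.4 CPM (-2.80), Sirpa, the receptor for CD47, from 1446 to 665 CPM (-1.12), and Cd276, from 6.08 to 4.19 CPM (-0.54), which lost the call without PBS replicate 1 (-0.42) or LPS replicate 2 (-0.41).

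Enzymes that make toxic or signalling molecules showed some of the widest ranges. Of 14 genes of nitric oxide, arginine and itaconate metabolism 9 rose and 4 fell (median 2.53). Acod1 was at 6.36, 7.08 and 9.01 CPM with PBS and 8461, 8448 and 8320.3 CPM with LPS (log2 fold change 10.13, SE 0.33, adjusted p = 3.6e-10), Slc7a2, which imports arginine, rose from 14.6 to 1487 CPM (6.67), and the amino acid oxidase gene Il4i1 rose from 0.191 to 47.8 CPM (7.92). The 4 that fell included Asl from 32.4 to 23.9 CPM (-0.44), Spr from 16.8 to 9.75 CPM (-0.78) and Qdpr from 46.8 to 39.3 CPM (-0.25). The last 2 enzymes make and recycle tetrahydrobiopterin, a cofactor of nitric oxide synthase. In the prostaglandin and leukotriene list 6 of 17 rose and 8 fell (median -0.42). Ptgs2, which encodes the inducible cyclooxygenase, was at 1.16, 1.002 and 1.11 CPM with PBS and 1718, 1528 and 1605 CPM with LPS (log2 fold change 10.53, SE 0.21, adjusted p = 3.5e-15), and Ptges, the inducible prostaglandin E synthase, rose from 3.54 to 188 CPM (5.73). Hpgds, the haematopoietic prostaglandin D synthase, fell from 63.03 to 14.02 CPM (-2.17).

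Of 23 genes of the NADPH oxidase and the NRF2 antioxidant programme 13 rose and 8 fell (median 0.55, or -0.12 by totals alone). Sod2, the mitochondrial superoxide dismutase, rose from 62.6 ± 1.995 to 1357 ± 148 CPM (log2 fold change 4.44, SE 0.09) and Slc7a11, the cystine transporter, rose from 8.55 to 77.98 CPM (3.19), whereas Gclc, the catalytic subunit of the first enzyme of glutathione synthesis, fell from 33.04 to 9.1999 CPM (-1.84). Keap1, the inhibitor of NRF2, rose from 47.1 to 169 CPM (1.84). In the list of iron and other metals 10 of 17 rose and 6 fell (median 0.66, or -0.0034 by totals alone). Lcn2, which binds bacterial siderophores, was at 0.506, 0.465 and 0.679 CPM with PBS and 272, 345 and 351 CPM with LPS (9.18), and the metallothionein gene Mt2 rose from 11.1 to 162 CPM (3.87). Fth1, the ferritin heavy chain, rose from 11675 ± 446 to 23302 ± 795 CPM (log2 fold change 0.997, SE 0.06) while the iron reductase gene Steap3 fell from 166 to 29.97 CPM (-2.47). The iron exporter gene Slc40a1 (ferroportin), named after its values were seen, fell from 4.22 to 0.208 CPM (-4.30).

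The largest falls were spread over genes of varied function. Tcp11l2 was at 12.6, 11.1 and 10.8 CPM with PBS and 0.173, 0.0569 and 0.113 CPM with LPS, all 3 of the latter at or under the floor. Arhgap19, a GTPase-activating protein for RhoA (gene 71085, chromosome 19 from 41766588 to 41802084 of GRCm38.p6), was at 103, 109 and 105 CPM with PBS and 1.099, 0.683 and 1.805 CPM with LPS (log2 fold change -6.46, SE 0.18, adjusted p = 4.3e-14). Lpar5, a receptor for lysophosphatidic acid (gene 381810, chromosome 6 from 125067844 to 125086129), was at 32.5, 31.4 and 30.8 CPM with PBS and 0.405, 0.399 and 0.395 CPM with LPS (-6.28). Tmem273 fell from 14.6 to 0.1903 CPM (-6.22) and Lpin1, a phosphatidate phosphatase of lipid synthesis, from 32.6 to 0.439 CPM (-6.20). Sesn1, a stress-response gene that p53 controls, was at 63.4, 61.9 and 60.8 CPM with PBS and 1.21, 1.02 and 1.52 CPM with LPS (log2 fold change -5.62, SE 0.12, adjusted p = 6.9e-17). Kcnj2, an inward-rectifier potassium channel, fell from 21.3 to 0.437 CPM (-5.59). Galnt9, Mast1, Nat8l, Zfp395, Fam214a and 6430548M08Rik fell by 5.98, 5.64, 5.57, 5.56, 5.42 and 5.62 log2 units. Cxcr4, the chemokine receptor that holds leukocytes in the bone marrow (gene 12767, chromosome 1 from 128588199 to 128592299), was at 64.1, 72.2 and 69.8 CPM with PBS and 1.56, 1.77 and 1.35 CPM with LPS (log2 fold change -5.46, SE 0.10, adjusted p = 1.6e-17). None of these genes overlapped between PBS and LPS, which the rule for naming genes required, and 78.2% of all genes tested did not overlap either.

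Factors of the macrophage lineage were split, near the shares of all genes tested (36.5% higher and 40.2% lower). Of 22 myeloid and macrophage lineage factors 8 rose and 10 fell (median -0.10). Cebpa, a factor needed for the myeloid lineage, was at 377, 384 and 368 CPM with PBS and 13.3, 10.4 and 13.1 CPM with LPS (log2 fold change -4.94, SE 0.08, adjusted p = 4.8e-18). Tfeb, the master factor of lysosome genes, was at 82.8, 79.2 and 79.1 CPM with PBS and 6.71, 6.89 and 6.04 CPM with LPS (log2 fold change -3.62, SE 0.08), and Bhlhe40 at 316, 308 and 304 CPM with PBS and 28.6, 22.4 and 26.2 CPM with LPS (log2 fold change -3.59, SE 0.07). In contrast Spi1, which encodes the master myeloid factor PU.1, rose from 286 ± 6.24 to 888 ± 12.3 CPM (log2 fold change 1.63, SE 0.05). Of 19 nuclear receptors 6 rose and 9 fell, with a median of -0.23 that shifted by a further -0.22 without LPS replicate 1. Pparg fell from 68.1 ± 2.88 to 7.795 ± 0.283 CPM (log2 fold change -3.13, SE 0.09) and Rxra, its partner in binding DNA, fell from 167 to 43.5 CPM (-1.94), while the orphan receptor gene Nr4a3 rose from 0.1196 to 16.4 CPM (7.03) and Nr2f6 fell from 15.5 to 4.19 CPM (-1.89). In 4 lists of macrophage state the counts were mixed. General macrophage genes had 8 of 14 higher (median 0.21, or -0.10 with upper-quartile scaling and -0.45 by totals alone) and 3 lower, which included Csf1r, the receptor for the growth factor of macrophages, from 617 to 425 CPM (-0.54), and Fcgr3, from 506 to 430.1 CPM (-0.24). Genes of peritoneal resident macrophages had 8 of 18 higher and 4 lower (median 0.31, or -0.0028 with upper-quartile scaling and -0.35 by totals alone). Those that rose included Saa3, which encodes an acute-phase serum amyloid A protein, from 31.3 to 1478 CPM (5.56), the phosphatidylserine receptor gene Timd4, from 0.419 to 6.64 CPM (3.97), and F10, which encodes coagulation factor X, from 55.2 to 516 CPM (3.23). The defining resident factor Gata6 was low in both groups, at 2.604, 2.72 and 2.93 CPM with PBS and 1.62, 2.28 and 1.64 CPM with LPS (-0.58), and the other members lower were Naip1, from 8.35 to 0.684 CPM (-3.60), Icam2, given below, and Cd5l, from 47.9 to 42.2 CPM (-0.18). Gata6 lost the call without LPS replicate 1 (-0.49) or 3 (-0.50) and Cd5l without PBS replicate 1 (-0.15). Genes of monocyte-derived macrophages had 6 of 15 higher and 6 lower (median 0.22, or -0.09 with upper-quartile scaling and -0.44 by totals alone), where the chemokine receptor gene Ccr2 fell from 12.1 to 2.22 CPM (-2.44) and Vcan, a matrix proteoglycan, rose from 4.04 to 551 CPM (7.09). Interleukin-4 and alternative activation genes had 10 of 20 higher and 7 lower (median 0.35, or -0.32 by totals alone), where Ch25h, the enzyme that makes 25-hydroxycholesterol, rose from 0.1203 to 159.6 CPM (10.32) and Ccl22 rose from 1.08 to 93.3 CPM (6.43).

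Core energy metabolism moved little by median but held single steps with large changes, beside 36.5% of all genes tested that rose and 40.2% that fell. Of 21 glycolysis genes 10 rose and 7 fell (median 0.07, or -0.24 with upper-quartile scaling and -0.59 by totals alone). Uptake and phosphofructokinase held the largest changes. Slc2a6, a sugar transporter, rose from 40.1 ± 1.55 to 858 ± 63.3 CPM (log2 fold change 4.42, SE 0.08), Pfkfb3, which makes the activator of phosphofructokinase, rose from 74.7 ± 0.515 to 927 ± 82.2 CPM (log2 fold change 3.63, SE 0.08), and the platelet-type phosphofructokinase Pfkp rose from 64.8 to 289.5 CPM (2.16) while the liver type Pfkl fell from 54.3 ± 0.716 to 12.3 ± 0.326 CPM (log2 fold change -2.14, SE 0.06). In the tricarboxylic acid cycle 4 of 22 rose and 10 fell (median -0.13). Idh1, the cytosolic isocitrate dehydrogenase, was at 219, 219 and 208 CPM with PBS and 16.5, 17.5 and 16.5 CPM with LPS (log2 fold change -3.68, SE 0.07, adjusted p = 1.4e-17), and Idh2, its mitochondrial counterpart, fell from 56.9 to 34.4 CPM (-0.73). The 4 genes of this list that rose under TMM scaling included Dld, from 38.4 to 62.3 CPM (0.70), Dlst, from 86.3 to 119 CPM (0.46), and Cs, from 195 to 266 CPM (0.44). Oxidative phosphorylation subunits had 17 of 27 higher and 1 lower, which was Ndufs1, from 39.6 to 31.3 CPM (-0.34), with a median of 0.27, or -0.04 with upper-quartile scaling and -0.39 by totals alone, and no member passed 1 log2 unit either way under TMM scaling. The count of subunits lower was 2 without LPS replicate 2, without LPS replicate 3 or without a filter. By totals alone 23 of the subunits were lower and none higher by the test. Mitochondrial ribosomal proteins had 10 of 24 higher and 4 lower, with a median of 0.14, or -0.17 with upper-quartile scaling and -0.52 by totals alone. Among the members lower were Mrpl28, from 21.6 to 14.3 CPM (-0.60), Mrps35, from 7.84 to 5.19 CPM (-0.59), Mrpl2, from 14.5 to 10.2 CPM (-0.50), and Mrpl12, from 24.5 to 17.7 CPM (-0.47).

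Lists of lipid metabolism held members that rose and members that fell, beside 40.2% of all genes tested that were lower. In fatty acid synthesis, storage and oxidation 5 of 27 rose and 15 fell (median -0.34). Scd2, a desaturase that makes monounsaturated fatty acids, was at 141, 133 and 140.1 CPM with PBS and 11.05, 7.23 and 7.16 CPM with LPS (log2 fold change -4.03, SE 0.11, adjusted p = 2.9e-15). The lipid chaperone gene Fabp4 fell from 370.3 ± 25.4 to 71.3 ± 5.05 CPM (log2 fold change -2.38, SE 0.10). The 5 that rose were Dgat2, which completes triglyceride synthesis, from 0.191 to 11.9 CPM (5.92), Acsl1, which activates fatty acids, from 45.6 to 299 CPM (2.71), the lipase gene Lipe, from 10.7 to 41.002 CPM (1.93), Hilpda, from 27.7 to 53.6 CPM (0.95), and Acadl, from 78.6 to 109 CPM (0.47). In cholesterol synthesis and uptake 6 of 22 rose and 11 fell (median -0.21). Dhcr7, which catalyses the final step of synthesis, fell from 76.6 ± 4.69 to 10.2 ± 0.798 CPM (log2 fold change -2.91, SE 0.08) and Mvd fell from 34.7 to 12.8 CPM (-1.43). In cholesterol efflux and storage 6 of 15 rose and 6 fell (median -0.03, or 0.02 with RLE scaling). Nceh1 and Soat1, which hydrolyse and form cholesteryl esters, fell from 458 to 118 CPM (-1.95) and from 607 to 187 CPM (-1.70), and Npc1, which exports cholesterol from lysosomes, fell from 649 to 289.6 CPM (-1.16). Of 19 genes of the pentose phosphate pathway, one-carbon units and serine 4 rose and 9 fell (median -0.24). The 4 that rose included Rpe, from 18.7 to 52.3 CPM (1.48), Mthfd2, from 28.1 to 60.8 CPM (1.11), and Tyms, from 9.71 to 14.8 CPM (0.61), while the cytosolic folate enzyme Mthfd1 fell from 23.3 to 7.83 CPM (-1.58).

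Genes for making proteins mostly shifted by small amounts, and the direction for ribosomal proteins and translation factors rests on the scaling. Of 36 cytosolic ribosomal proteins 18 rose and 1 fell, which was Rpl3, from 404 to 355 CPM (-0.19), with a median of 0.19, or -0.11 with upper-quartile scaling and -0.47 by totals alone. Rpl24 rose from 144 to 341 CPM (1.24). Ribosome biogenesis had 6 of 31 higher and 16 lower (median -0.21), against 36.5% of all genes tested higher and 40.2% lower. Gnl3, which encodes nucleostemin, fell from 17.5 to 6.52 CPM (-1.43) and Polr1b, a subunit of RNA polymerase I, fell from 12.1 to 4.64 CPM (-1.38), while Wdr43 rose from 21.8 to 105 CPM (2.27). For translation factors 14 of 25 rose and 6 fell (median 0.16, or -0.15 with upper-quartile scaling and -0.50 by totals alone). Eef2k, the kinase that inhibits elongation, fell from 8.23 to 0.686 CPM (-3.58), the translation repressor gene Eif4ebp2 fell from 166 to 48.3 CPM (-1.78) and Eif4g2 rose from 683 to 1845 CPM (1.43). Among aminoacyl-tRNA synthetases 7 of 20 rose and 11 fell (median -0.39), where Wars, an enzyme that interferons induce, rose from 73.4 ± 2.17 to 358 ± 23.4 CPM (log2 fold change 2.29, SE 0.06).

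Proteasome genes rose under TMM scaling, and genes of the unfolded protein response mostly fell. Of 27 proteasome subunits 24 rose and none fell by the test (median 0.58, or -0.09 by totals alone), whereas by totals alone 9 were higher and 11 lower. Psma6 rose from 60.3 to 229.6 CPM (1.93), Psma5 from 37.99 to 141 CPM (1.89) and Psma3 from 64.7 to 153 CPM (1.24). In the list of heat shock proteins and chaperonins 16 of 22 rose and 5 fell (median 0.36, or -0.30 by totals alone). Hspa1b and Hspa1a, the near-identical inducible genes of HSP70, rose from 0.883 to 15.3 CPM (4.10) and from 3.16 to 18.1 CPM (2.52). The 5 that fell were Hsph1, from 30.9 to 13.5 CPM (-1.19), the mitochondrial chaperonin genes Hspd1, from 83.7 to 54.2 CPM (-0.63), and Hspe1, from 35.3 to 29.5 CPM (-0.26), Bag3, from 74.3 to 59.05 CPM (-0.33), and Hspa9, from 179 to 146 CPM (-0.29), of which Hspe1 lost the call without PBS replicate 2 (-0.23) or LPS replicate 1 (-0.16). The unfolded protein and integrated stress response had 3 of 25 higher and 17 lower (median -0.49), against 36.5% of all genes tested higher and 40.2% lower. Eif2ak3, which encodes the endoplasmic reticulum sensor PERK, fell from 27.3 ± 1.17 to 3.898 ± 0.351 CPM (log2 fold change -2.81, SE 0.11), Sesn2 from 9.05 to 2.17 CPM (-2.06), Herpud1 from 33.7 to 9.92 CPM (-1.77) and Dnajb9 from 40.2 to 13.9 CPM (-1.54). The 3 that rose were Ppp1r15a, from 28.3 to 51.96 CPM (0.88), Hspa5, the chaperone BiP, from 726 to 1088 CPM (0.58), and Xbp1, from 157 to 236 CPM (0.58).

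The degradative system of the cell held different trends in its parts, beside 36.5% of all genes tested that rose and 40.2% that fell. Lysosomal enzymes and the proton pump had 7 of 26 higher (3 without PBS replicate 2 or 3, without a filter or among genes with at least 10 counts in every library) and 9 lower, and the median was at 0.00 (0.05 with RLE scaling, -0.31 with upper-quartile scaling and -0.66 by totals alone). Atp6v0a1 and Atp6v0d2, subunits of the proton pump, fell from 1056 ± 58.5 to 369 ± 52.9 CPM (log2 fold change -1.52, SE 0.09) and from 698 ± 5.04 to 277 ± 22.04 CPM (log2 fold change -1.33, SE 0.06). Lamp2, a membrane protein of lysosomes, rose from 549.9 to 889 CPM (0.69). Autophagy had 7 of 27 higher and 16 lower (median -0.70). Tecpr1, which helps autophagosomes fuse with lysosomes, fell from 228 ± 2.88 to 44.2 ± 7.61 CPM (log2 fold change -2.37, SE 0.09), Atg2b fell from 25.3 to 7.18 CPM (-1.82), Wipi1 from 6.18 to 1.86 CPM (-1.73) and Atg7, the enzyme that activates the conjugation system, from 134 to 46.2 CPM (-1.54). Sqstm1, the cargo receptor p62, was named after its values were seen and rose from 471 to 987 CPM (1.07). For endosomes, ESCRT proteins and Rab trafficking 16 of 26 rose and 7 fell (median 0.70). Stx11, a fusion protein, rose from 14.8 to 173 CPM (3.54), Rab11fip1 from 15.01 to 129 CPM (3.11) and Snx10 from 60.8 to 353 CPM (2.54). Rab7b, a late endosomal GTPase, was at 299.95, 295 and 293 CPM with PBS and 20.3, 25.9 and 24.8 CPM with LPS (log2 fold change -3.64, SE 0.08, adjusted p = 7.9e-17).

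On the cell surface, lists were mixed and single receptors changed far, beside 36.5% of all genes tested that rose and 40.2% that fell. Of 20 scavenger and phagocytic receptors 9 rose and 8 fell (median -0.04, or 0.01 with RLE scaling). Axl, a receptor for dying cells, rose from 50.97 ± 2.12 to 774 ± 53.5 CPM (log2 fold change 3.92, SE 0.08), Olr1, the receptor for oxidised lipoprotein, rose from 2.67 to 36.98 CPM (3.79), and the inhibitory receptor gene Cd300a fell from 207 ± 8.34 to 24.9 ± 1.98 CPM (log2 fold change -3.05, SE 0.07). Of 15 C-type lectins 9 rose and 6 fell (median 0.64, or -0.02 by totals alone). Clec4e, which encodes Mincle, a receptor for mycobacterial glycolipid, rose from 31.7 ± 1.74 to 1477 ± 146 CPM (log2 fold change 5.54, SE 0.11), and Clec10a fell from 16.1 to 5.48 CPM (-1.55). Among 7 Fc receptors the 4 that rose were Fcgr4, from 47.7 to 461 CPM (3.27), Fcgr1, from 109.7 to 904 CPM (3.04), Fcgr2b, from 166 to 628 CPM (1.92), and Fcer1g, from 707 to 1714 CPM (1.28). The 3 that fell were Fcgrt, from 14.3 to 9.07 CPM (-0.66), Fcrls, from 3.83 to 2.61 CPM (-0.55), and Fcgr3, from 506 to 430.1 CPM (-0.24), and the median was 1.28. Integrins and adhesion molecules had 11 of 22 higher and 4 lower (median 0.17, or -0.14 with upper-quartile scaling and -0.49 by totals alone). Vcam1 and Icam1, ligands of leukocyte integrins, rose from 2.06 to 91.4 CPM (5.47) and from 23.03 to 908 CPM (5.30), and Itgal and Itga5 rose from 40.1 to 239 CPM (2.58) and from 138 to 783 CPM (2.50). The 4 that fell were Itgb3, from 22.1 to 4.88 CPM (-2.18), Itga6, from 171 to 37.7 CPM (-2.18), Itgb5, from 248 to 107 CPM (-1.22), and Icam2, from 3.35 to 2.13 CPM (-0.65).

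Of 19 chemokine and chemoattractant receptors 11 rose and 7 fell (median 0.55, or -0.11 by totals alone). Both formyl peptide receptors, which sense bacterial peptides, went from near the floor to abundant messages. Fpr1 was at 0.723, 0.644 and 0.536 CPM with PBS and 250.01, 268 and 282 CPM with LPS (8.70) and Fpr2 at 0.651, 0.537 and 1.47 CPM with PBS and 208, 263 and 266 CPM with LPS (8.11). Gpr84, a receptor for medium-chain fatty acids, rose from 0.694 to 58.9 CPM (6.40). Of 21 receptors and enzymes of nucleotide, adenosine and lipid signalling 8 rose and 12 fell (median -0.46). Adora2a, the adenosine receptor that dampens inflammation, rose from 3.804 ± 0.0717 to 144 ± 7.41 CPM (log2 fold change 5.24, SE 0.07) and Lpar1 rose from 0.419 to 22.3 CPM (5.72), while P2ry1, a receptor for ADP, fell from 20.4 ± 1.83 to 0.645 ± 0.211 CPM (log2 fold change -4.97, SE 0.17). Between the 2 receptors for lysophosphatidic acid, Lpar1 thus rose while Lpar5 fell.

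Genes of division and genome maintenance mostly fell, under each scaling. Of 33 genes of the cell cycle and DNA replication 8 rose and 24 fell, 17 of them by more than 1 log2 unit, against 19.2% of all genes tested (median -1.11). E2f2, a factor of the S phase programme, fell from 9.46 ± 0.7204 to 0.247 ± 0.0304 CPM (log2 fold change -5.23, SE 0.19), the helicase subunit gene Mcm2 fell from 22.5 to 4.31 CPM (-2.39) and Cdk2 fell from 14.1 to 4.58 CPM (-1.62). Ccnd2, which encodes cyclin D2, moved against its list and was at 1.55, 1.18 and 1.11 CPM with PBS and 577, 475 and 474 CPM with LPS (log2 fold change 8.63, SE 0.16, adjusted p = 2.7e-16). Several members were low in PBS libraries too, such as E2f2 at 9.46 CPM, and whether fewer cells were cycling was not tested. Among inhibitors of cyclin-dependent kinases and p53 targets 7 of 19 rose and 10 fell (median -0.27). Cdkn1a, the kinase inhibitor p21, rose from 37.1 ± 0.599 to 668 ± 42.02 CPM (log2 fold change 4.17, SE 0.07) and Gadd45b rose from 45.4 to 312 CPM (2.78), while Phlda3 fell from 6.89 to 1.18 CPM (-2.54) beside Sesn1. DNA repair had 7 of 36 higher and 24 lower, 19 of these by more than 1 unit (median -1.11). Parp1, which senses strand breaks, fell from 79.3 ± 4.16 to 18.3 ± 2.14 CPM (log2 fold change -2.12, SE 0.08), Xrcc6, which encodes Ku70, fell from 7.48 to 1.75 CPM (-2.09), and Fanca rose from 3.55 to 14.7 CPM (2.05).

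Genes of cell death and survival moved in both directions, beside 36.5% of all genes tested that rose and 40.2% that fell. In the BCL2 family 8 of 16 rose and 4 fell (median 0.36, or -0.31 by totals alone). The survival genes Bcl2a1a, Bcl2a1d and Bcl2a1b rose from 3.39 to 121 CPM (5.15), from 12.97 to 354 CPM (4.77) and from 105 to 703 CPM (2.74), and reads of these copies can be shared between them. The 4 that fell were the pro-death genes Bmf, from 5.38 to 0.2096 CPM (-4.65), Bcl2l11 (BIM), from 61.7 to 22.5 CPM (-1.46), and Bad, from 18.5 to 14.4 CPM (-0.36), and the survival gene Bcl2, from 11.4 to 2.11 CPM (-2.43). Of 28 death receptors, inflammasome genes, caspases and gasdermins 18 rose and 8 fell (median 1.33). Mefv, which encodes pyrin, rose from 4.09 to 167 CPM (5.35), the inflammasome sensor gene Nlrp3 rose from 12.2 ± 0.579 to 378 ± 55.2 CPM (log2 fold change 4.95, SE 0.10), Casp4, which encodes caspase-11, the cytosolic sensor of LPS, rose from 6.602 ± 0.467 to 193 ± 37.4 CPM (log2 fold change 4.87, SE 0.14), and the kinase gene Ripk2 rose from 8.06 to 136 CPM (4.07).

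Genes that handle RNA rose slightly by median under TMM scaling and fell by totals alone. Under TMM scaling 36.5% of all genes tested rose and 40.2% fell. Of 28 splicing factors 17 rose and 5 fell (median 0.30, or -0.01 with upper-quartile scaling and -0.36 by totals alone), with Prpf4 higher from 13.6 to 38.8 CPM (1.52) and Srsf3 from 59.03 to 127 CPM (1.10). The 5 that fell were Prpf19, from 50.1 to 35.7 CPM (-0.49), Hnrnpu, from 189 to 161 CPM (-0.23), Srsf2, from 135 to 118 CPM (-0.20), Srsf6, from 81.6 to 71.2 CPM (-0.20), and Srsf1, from 78.3 to 68.9 CPM (-0.18). In mRNA decay 17 of 29 rose and 4 fell (median 0.38, or -0.29 by totals alone). Dcp2, the decapping enzyme, rose from 20.7 ± 0.455 to 159 ± 10.8 CPM (log2 fold change 2.94, SE 0.08), and the exonuclease genes Xrn2 and Xrn1 rose from 49.4 to 161 CPM (1.70) and from 26.7 to 85.2 CPM (1.67). The 4 that fell were Cnot6l, from 50.3 to 22.4 CPM (-1.16), Smg6, from 18.8 to 9.46 CPM (-0.99), Upf3b, from 5.55 to 2.94 CPM (-0.91), and Parn, from 12.3 to 7.36 CPM (-0.74). Histone-modifying enzymes were split, with 15 of 36 higher and 11 lower (median 0.03, or -0.28 with upper-quartile scaling and -0.64 by totals alone). Kdm6b, a demethylase of histone H3, rose from 10.1 to 60.8 CPM (2.58), Kat2b, an acetyltransferase, from 19.4 to 98.3 CPM (2.34) and Hdac1, a deacetylase, from 35.5 to 119 CPM (1.74), whereas Hdac5 was at 65.4, 65.5 and 65.2 CPM with PBS and 5.67, 3.19 and 3.72 CPM with LPS (log2 fold change -3.96, SE 0.12, adjusted p = 6.6e-15). The circadian clock had the lowest median of the 64 lists. Of 17 clock genes 14 fell, 11 of them by more than 1 log2 unit (median -1.24), against 40.2% of all genes tested lower and 19.2% lower by more than 1 log2 unit. Tef, an output factor of the clock, fell from 27.9 ± 0.277 to 2.61 ± 0.491 CPM (log2 fold change -3.42, SE 0.11) and Rora, an activator of the clock, fell from 9.63 to 1.86 CPM (-2.37). The 1 clock gene that rose was Nfil3, which opposes Tef at the same sites, from 8.64 to 58.5 CPM (2.76), and without PBS replicate 2 the count was 2. Most clock genes were weakly expressed, and the time of day at harvest is not given in the sources used here.

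Genes of actin and its partners rose more often than they fell under TMM scaling. Of 30 actin, tubulin and motor genes 18 rose and 9 fell (median 0.52, or -0.14 by totals alone). Actb was at 5248, 4698 and 4995 CPM with PBS and 30299.8, 25038 and 24570.5 CPM with LPS (log2 fold change 2.42, SE 0.08, adjusted p = 2.5e-14). Marcksl1, which binds actin at the membrane, was at 13.1, 12.99 and 12.5 CPM with PBS and 4091, 3779 and 3797 CPM with LPS (log2 fold change 8.24, SE 0.12, adjusted p = 1.5e-18). Zyx, a focal adhesion protein, rose from 233 ± 13.4 to 2520.4 ± 311 CPM (log2 fold change 3.44, SE 0.09) and Fscn1, which bundles actin, rose from 14.1 to 76.2 CPM (2.43). The genes that fell included all 5 myosins of the list, motors that move on actin, which fell by 0.52 to 1.92 log2 units. Among genes that act on small GTPases, Arhgap18 fell from 40.3 ± 1.28 to 2.47 ± 1.16 CPM (log2 fold change -4.03, SE 0.16) and Arhgef18 fell from 13.3 to 1.79 CPM (-2.89), while Arhgef3 rose from 18.5 to 122 CPM (2.71). Members named only because their list held few that moved as they did were chosen after their values were seen, and apart from those and the genes marked so above, names follow the fixed rule. Over all genes named as higher or lower the largest adjusted p was 0.0498 (Ccl6), and the standard errors of their log2 fold changes lay between 0.05 (Ctsd) and 0.82 (Ifnb1).

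**Figure D3:**
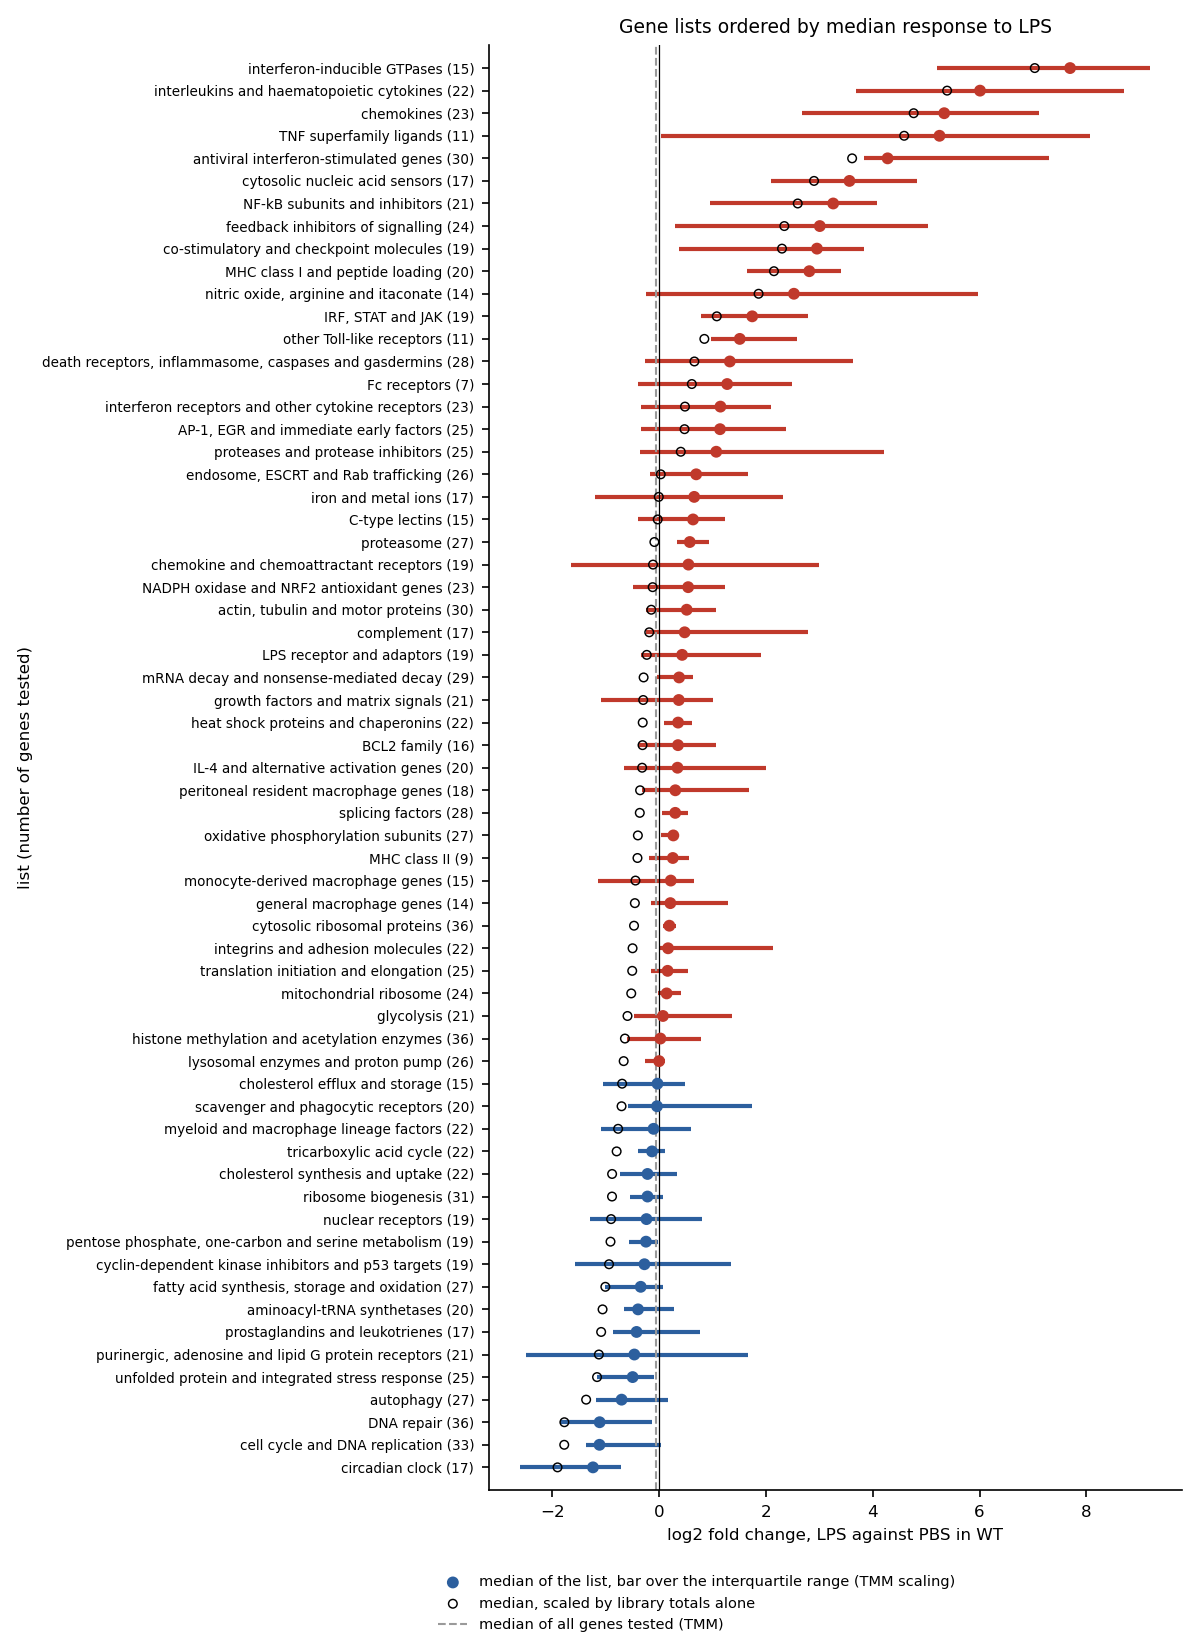
Median log2 fold change of LPS against PBS in WT macrophages (points, TMM scaling) with the interquartile range (bars) for 63 of the 64 gene lists, with the number of genes tested in parentheses, the median under scaling by library totals alone (open circles) and the median of all genes tested (dashed line). Interferon-inducible GTPases, cytokines and chemokines lie at the top and cell cycle, DNA repair and clock genes at the bottom, and lists whose point and open circle lie on opposite sides of 0, such as the proteasome and oxidative phosphorylation, change direction with the scaling.

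The elements shown in the 4 printed promoters were counted in the 250 bases before the start of every gene tested that has a promoter entry (9651 of 12064). The ISRE core was in 28.2% of the 100 genes with the largest rise (n = 78 with an entry), in 1.27% of the 100 with the largest fall (n = 79) and in 3.52% of all genes tested. Over all 32851 promoters of the table, each counted singly and with those of genes not tested among them, the share was 2.98%. In the 3 sets a gene counted where any of its promoters matched, and promoters per gene averaged 1.19, 1.56 and 1.27, so the 2 kinds of share are not strictly alike. The kB consensus was in 19.2%, 10.1% and 10.7% of the same 3 sets and in 7.25% of all promoters. A TATA box (TATAA on the strand of the gene) was in 34.6%, 10.1% and 10.2% of the sets and in 16.0% of all promoters. By size of the response, the ISRE core was in 18.4% of genes that rose by more than 5 log2 units, 10.9% of those that rose by 3 to 5, 5.79% by 1 to 3 and 3.71% by up to 1, against 2.35% of genes not called and 1.802% of those that fell by more than 3. The shares of the other elements also climbed with the size of the rise and stayed near those of all genes tested on the side of the falls. The promoters of the 100 genes with the largest rise held a median of 4 CpG dinucleotides in 250 bases, those of the 100 with the largest fall 16 and those of all genes tested 17. The largest risers were also shorter, with a median gene span of 13390 bases against 34832 for the largest fallers and 23480 for all genes tested. These are descriptions without a test, and families of neighbouring copies share promoter sequence.

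**Figure D4:**
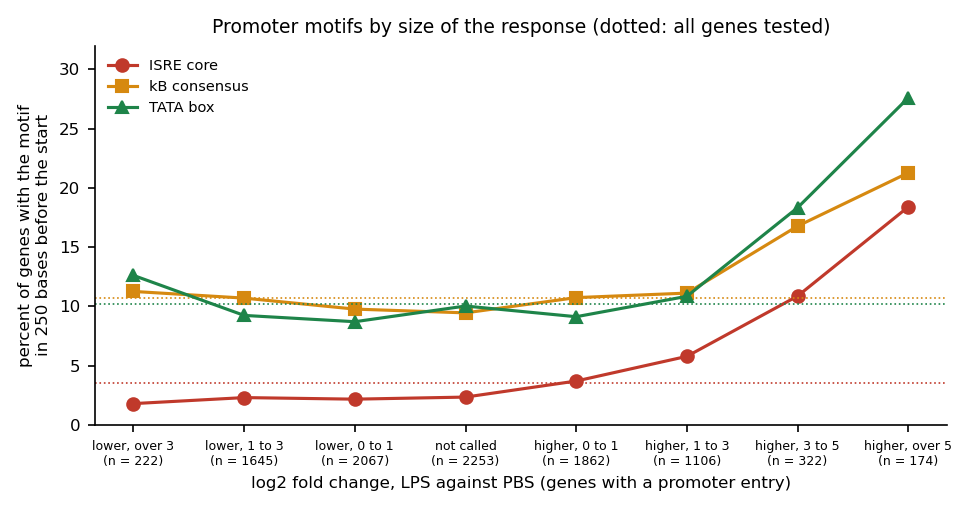
Percent of genes with an ISRE core, a kB consensus or a TATA box in the 250 bases before the start, by log2 fold change of LPS against PBS in WT macrophages (TMM scaling), with the number of genes under each class and dotted lines at the share in all genes tested. The ISRE share climbs from 2.35% in genes not called to 18.4% in those higher by more than 5 log2 units, and no such climb is seen among genes that fell.

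Finally, the WT response was set against that of the 6 libraries labelled as knockouts, by the interaction of genotype label and LPS in the same model. The log2 fold change differed for 2176 of 12064 genes (18.0%). For antiviral interferon-stimulated genes it was less positive in WT for 24 of 30, and for no member of this list was it more positive. It was also less positive in WT for 10 of 27 proteasome subunits and 11 of 31 ribosome biogenesis genes, again with none more positive. Among nucleic acid sensors 13 of 17, among chemokines 14 of 23 and among feedback inhibitors 12 of 24 were less positive in WT, and 1 of each list was more positive. Cholesterol synthesis and uptake had 12 of 22 less positive and 3 more positive in WT. Lysosomal enzymes and the proton pump went the other way, with 10 of 26 more positive and 1 less positive in WT than in the libraries labelled as knockouts. No oxidative phosphorylation subunit of the 27 tested differed. These counts do not show a loss of Ythdf1 message in the libraries labelled as knockouts, as given above, and the 2 sets of libraries may differ in anything else that came with their mice.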

How the data were processed

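The authors sequenced messenger RNA as single-end reads of 50 bases and deposited 1 table of expected counts per library. The submitters' processing notes name Bowtie2, RSEM 1.3.1 and GRCm38.p6, whereas the study's methods name STAR and HTSeq. Of the deposited estimated counts, over all 16920 genes listed, 24.6 to 26.2% per WT library carry decimals, as RSEM splits reads between similar genes, so members of the Gbp, H2, Serpina3, Apol9, Ifit, Oas and Bcl2a1 families are less certain. Expected counts were rounded and fitted with edgeR 4.0.16 in R 4.3.3 (limma 3.58.1; TMM scaling, filterByExpr, quasi-likelihood test, adjusted p under 0.05) over all 12 libraries, with 1 mean per group. The biological coefficient of variation was 6.99%. Alternatives were 3 other scalings, 2 other filters, DESeq2 1.42.0, a fit to the 6 WT libraries, a replicate block and leaving out each WT library. The fit was also run on simulated counts in which few genes changed, up and down alike, which does not bear on the choice of scaling. Named genes were up to 4 members per list with the largest change, no overlap and at least 5 CPM in the group with the higher mean, the 15 largest changes each way, and the 10 largest gains and losses in unscaled CPM, and some of these genes and 1 list are not reported here. The members and lists were chosen with earlier results of these data known. Gene positions and promoters are from RefSeq tables.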

Additional observations from a re-analysis of the deposited data

Results flagged for a closer look

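Of the 312 genes named above, 114 were set apart. Their log2 fold change to LPS differed between the WT libraries and the 6 libraries labelled as knockouts. The test was that of the interaction in edgeR's quasi-likelihood fit, which called 18.0% of all 12064 genes tested. Named genes were mostly chosen for a large response in WT, so the shares are not strictly alike. Values in parentheses are the log2 fold change in the libraries labelled as knockouts minus that in WT, so a positive value means a less positive response in WT. The message of Ythdf1 was not lost in the libraries labelled as knockouts, and WT LPS replicate 1 stands apart from its group. The number of genes with a called difference was 2685 without that library and 2176 with it.

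Most of these that rose in both sets of libraries rose less in WT. Among chemokines and cytokines these were Ccl5 (2.50), Il1a (2.34), Cxcl2 (2.20), Ccl22 (1.76), Ccl3 (1.52), Tnf (1.35), Inhba (1.92) and Hbegf (0.76). Among interferon-induced genes and sensors they were Irf7 (1.49), Ifit1 (1.03), Zbp1 (0.99), Ifit2 (0.96), Ifi205 (0.80), Rsad2 (0.79), Ifih1 (0.62) and Stat2 (0.39), and among genes of LPS sensing and NF-kB Tlr2 (0.88), Irak3 (0.64), Cd14 (0.48), Peli1 (0.48), Nfkbiz (0.47), Nfkb2 (0.46) and Tnip3 (0.45). Restraining molecules were also lower in their rise in WT, Cish (1.89), Il1rn (1.69), Socs3 (0.59), Adora2a (0.54), Cd274 (0.32) and Ppp1r15a (0.52). Genes of effector enzymes, metabolism and metals were Il4i1 (5.03), Slc7a11 (1.87), Hilpda (1.42), Ptgs2 (1.40), Mt2 (1.23), Ptges (1.08), Slc7a2 (0.63), Sod2 (0.55), Slc2a6 (0.46), Pfkfb3 (0.35), Dld (0.32) and Dlst (0.24). Those of surface molecules and complement were Ccr7 (2.19), Cfb (1.65), Clec4e (1.10), Fcgr2b (0.80) and Itga5 (0.62), and those of death and survival Bcl2a1a (2.04), Nlrp3 (0.95), Casp4 (0.79), Bcl2a1d (0.53) and Cdkn1a (0.37). The remaining genes of this kind were Rab11fip1 (1.06), Kdm6b (0.96), Marcksl1 (0.63), Sqstm1 (0.44), Stx11 (0.39), Psma6 (0.38), Saa3 (1.39), F10 (0.35) and Eif4g2 (0.30). For Il4i1 the rise was 7.92 in WT and 12.95 in the other libraries. Genes that rose more in WT were fewer, Il15ra (-0.64), Arhgef3 (-0.61), Lipe (-0.60), Prpf4 (-0.45), Ythdf1 (-0.42) and Cebpd (-0.40).

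Among genes that fell, many fell less in WT. Of genes of survival, DNA repair and gene control these were Bmf (-2.35), Zfp395 (-1.39), Phlda3 (-1.35), Hdac5 (-0.91), Parp1 (-0.80), Rxra (-0.54), Tfeb (-0.52), Pparg (-0.47) and Cebpa (-0.44). Of metabolic genes they were Lpin1 (-1.69), Pfkl (-0.97), Steap3 (-0.88), Hpgds (-0.75), Dhcr7 (-0.70), Idh2 (-0.63), Mthfd1 (-0.58), Idh1 (-0.57), Lipa (-0.49), Nceh1 (-0.45), Soat1 (-0.39), Spr (-0.42), Qdpr (-0.29), Ctsd (-0.36) and Atp6v0d2 (-0.31). Of surface molecules, ligands and regulators they were Arhgap18 (-0.92), Icam2 (-0.83), Clec10a (-0.83), Itgb5 (-0.75), Itga6 (-0.66), Eif2ak3 (-0.61), Tnfsf13 (-0.60), Csf1r (-0.58), Cd300a (-0.45), Fcgrt (-0.42), Fcgr3 (-0.39) and Tnfsf12 (-0.36). Genes that fell more in WT were Mast1 (1.87), Dusp6 (1.25), Egr2 (0.94), Mvd (0.72), Bhlhe40 (0.71), Gnl3 (0.68), Herpud1 (0.61), Gclc (0.49), Zfp36l1 (0.45) and Hspd1 (0.30). Under TMM scaling C5ar1 (0.79) and Ccl6 (0.40) had log2 fold changes of -0.24 and -0.19 in WT and of 0.55 and 0.21 in the libraries labelled as knockouts. These sizes are under the shift that scaling by totals alone makes in WT, and the fall of Ccl6 in WT lost its call in the fits given above, so an opposite direction is not claimed.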

How the results depend on the processing

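The counts of genes rest most on the scaling. By library totals alone, 2223 genes were higher and 8247 lower, and by more than 1 log2 unit 1342 were higher and 4628 lower. Of the genes called, 47.6% were higher with TMM, 49.9% with RLE, 32.5% with upper-quartile scaling, 21.2% by totals alone and 50.1% in DESeq2. By totals alone the log2 fold change changed sign for Cs (-0.22), Dlst (-0.20), Acadl (-0.19), Hspa5 (-0.0783), Xbp1 (-0.0782), Tyms (-0.0525) and Irf3 (-0.55), and with upper-quartile scaling for Irf3 (-0.20), each positive with TMM. Dld, Lamp2, Hilpda, Zbtb46 and S100a8 did not pass the test by totals alone (0.04, 0.03, 0.29, 0.39 and 0.28). Of 128 counts of list members, 56 moved by over 1.5 times by totals alone, 33 with upper-quartile scaling and 2 with RLE.

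The number of genes called was 9151 in DESeq2, 8966 in a fit to the 6 WT libraries alone, 9465 without a filter and 7944 among genes with at least 10 counts in every library. A test against a threshold of 1 log2 unit (glmTreat) called 3440 genes. Leaving out each WT library in turn, in fits that pool the spread, gave 8912 to 9298 genes called, 4228 to 4430 higher and 4603 to 4868 lower. By more than 1 log2 unit these fits gave 2096 to 2157 higher and 2277 to 2380 lower, and 1584 to 2685 genes whose response differed by genotype label. The single-library fits in which named genes lost their call, for 8 genes, stand beside them above. The replicate numbers are not stated to pair the libraries. Deviations of same-numbered libraries correlated at 0.35, 0.39 and -0.07, which cannot decide whether they do, as the signs differ and LPS replicate 1 stands apart. With the replicate block 9267 genes were called and 2132 differed by label, and no named gene changed its call. Genes at or under 3 counts in a group have a lower bound only.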

Other observations

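Gene families were also taken by the stem of their symbols after the values had been seen, and a few of their members are in the lists above. Those given here are families with many members lower. Other stems went the other way, such as Med, with 19 of 30 higher and 4 lower (median log2 fold change 0.52), and Rbm, with 21 of 33 higher and 6 lower (median 0.34). Of all genes tested 40.2% were lower and 19.2% lower by more than 1 log2 unit. Of 28 genes of the Tbc family, most of which encode GTPase-activating proteins for Rab GTPases of vesicle traffic, 21 were lower and 6 higher in WT with LPS, 16 of the lower, or 57.1% of the family, by more than 1 log2 unit (median log2 fold change -1.07). Of 31 kinesin motor genes (Kif) 21 (67.7%) were lower and 6 higher (median -0.91), and of 34 genes of centrosomal proteins (Cep) 21 (61.8%) were lower and 8 higher (median -0.63). Kelch-like genes (Klhl), many of which encode substrate adaptors of ubiquitin ligases, had 17 of 26 (65.4%) lower and 3 higher (median -0.65). The 330 zinc finger genes with the stem Zfp had 174 (52.7%) lower, 91 of them (27.6%) by more than 1 log2 unit, and 62 higher (median -0.41). Methyltransferase-like genes (Mettl) had 12 of 21 (57.1%) lower, 2 higher and none higher by more than 1 log2 unit. Among the same families the PBS level was low for kinesin and zinc finger genes, with a median of 3.87 and 3.99 CPM.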
